A study of Mus musculus with 96 samples.

Results

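Tmc3, Fam196b, Pcdh20, Rprm and Ipcef1 are 5 of the 48795 genes in the deposited count table. They were chosen by name as genes with large transcript increases in the striatum of Q140 mice, so the striatal Q140 difference of each gene is what selected it and is given here as a description without a test. The mice were 6 months old, on a C57BL/6 background, and fell into 6 genotypes. Q140 mice carried, in heterozygous form, a knock-in Htt allele with a long CAG repeat, a model of Huntington's disease expressed from the gene's own locus. Q140 Msh6+/- and Q140 Msh6-/- mice carried the same allele with a single copy or no intact copy of Msh6, whose product takes part in the recognition of DNA mismatches. Msh6+/-, Msh6-/- and wild-type mice had no Q140 allele and were their matched comparison groups. The cross asks how Msh6 dose changes the transcriptional effect of Q140. There were 8 mice of each genotype (4 of each sex), 48 in all, and cerebral cortex and striatum of every mouse were sequenced separately, giving 96 libraries of bulk tissue.

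The 5 genes belong to different pathways. Tmc3 encodes a member of the transmembrane channel-like family, whose relatives Tmc1 and Tmc2 form the mechanotransduction channel of inner ear hair cells. Pcdh20 encodes a non-clustered protocadherin, a cadherin-type adhesion protein of the neuronal surface. Fam196b, named Insyn2b in RefSeq, is a paralogue of Fam196a, whose product sits at the inhibitory postsynapse. Ipcef1 encodes a pleckstrin-homology protein that binds cytohesins, the exchange factors that load the small GTPase ARF6 with GTP. Rprm encodes Reprimo, a small glycoprotein known as a p53-induced mediator of arrest at the G2 phase of the cell cycle. The striatum is made up mostly of GABAergic projection neurons, which lose the expression of many of their identity genes in Huntington's disease models.

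On GRCm38, with GENCODE release M21 annotation, Tmc3 (ENSMUSG00000038540) lay on chromosome 7 from 83584927 to 83625614 on the plus strand. Fam196b (ENSMUSG00000069911) lay on chromosome 11 from 34314822 to 34422640 on the plus strand. Pcdh20 (ENSMUSG00000050505) lay on chromosome 14 from 88464743 to 88471396, Rprm (ENSMUSG00000075334) on chromosome 2 from 54084093 to 54085552 and Ipcef1 (ENSMUSG00000064065) on chromosome 10 from 6885796 to 7052478, all 3 on the minus strand. The genes therefore sit on 5 chromosomes and share no neighbourhood. Rprm was the shortest at 1460 bases, all of it exonic, and Ipcef1 the longest at 166683 bases with 9003 exonic bases.

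RefSeq promoter sequences on GRCm38.p6, 250 bases before to 50 bases after an annotated start, were held for 4 of the 5 genes, and they are shown to describe how far the genes, chosen for a common direction in striatum, differ in these windows. For Ipcef1, which has 3 such starts, the first listed is printed, and the other 2 hold none of the capitalised motifs. Each runs 5′ to 3′ on the strand of the gene, and capitals mark a CCAAT box (CCAAT), a GC box (GGGCGG) or a cyclic AMP response half-site (TGACG) on either strand.
Tmc3, chr7:83584681-83584980, plus strand: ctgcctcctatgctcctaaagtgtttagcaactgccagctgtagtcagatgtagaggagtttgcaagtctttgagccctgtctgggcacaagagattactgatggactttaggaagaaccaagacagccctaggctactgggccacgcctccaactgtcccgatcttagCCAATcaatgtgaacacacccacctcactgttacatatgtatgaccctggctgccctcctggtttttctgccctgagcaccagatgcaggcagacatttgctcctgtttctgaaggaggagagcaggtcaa
Pcdh20, chr14:88471347-88471646, minus strand: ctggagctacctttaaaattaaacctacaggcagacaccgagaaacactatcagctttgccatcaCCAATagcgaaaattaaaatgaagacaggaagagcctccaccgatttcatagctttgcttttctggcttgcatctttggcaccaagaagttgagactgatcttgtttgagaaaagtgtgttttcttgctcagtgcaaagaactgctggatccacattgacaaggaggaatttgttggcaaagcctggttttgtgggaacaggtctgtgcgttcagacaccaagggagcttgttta
Rprm, chr2:54085503-54085802, minus strand: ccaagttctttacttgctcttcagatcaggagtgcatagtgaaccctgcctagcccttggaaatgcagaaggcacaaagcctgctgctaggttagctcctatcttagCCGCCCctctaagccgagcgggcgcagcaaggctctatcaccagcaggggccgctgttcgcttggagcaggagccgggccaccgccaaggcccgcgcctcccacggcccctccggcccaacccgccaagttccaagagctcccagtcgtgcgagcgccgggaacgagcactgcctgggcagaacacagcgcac
Ipcef1, chr10:6980232-6980531, minus strand: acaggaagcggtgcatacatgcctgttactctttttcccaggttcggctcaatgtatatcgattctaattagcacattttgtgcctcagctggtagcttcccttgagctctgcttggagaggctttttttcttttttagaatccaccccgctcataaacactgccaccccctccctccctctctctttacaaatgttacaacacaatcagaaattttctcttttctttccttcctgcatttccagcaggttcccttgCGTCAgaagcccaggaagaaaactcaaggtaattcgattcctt
Tmc3 and Pcdh20 each held 1 CCAAT box, which 37.41% of 32851 RefSeq promoter windows of 300 bases hold. Rprm held 1 GC box, printed as its reverse complement, against 35.66% of all windows. Ipcef1 held 1 cyclic AMP response half-site, again as its reverse complement, against 20.81% of all windows. A TATA box (TATAAA, in 13.62% of windows) and an AP-1 site (TGANTCA, in 7.808%) matched in none of these 4 windows. E-boxes (CANNTG, in 72.31% of windows and not capitalised) matched 7 times in the Tmc3 window and 2 times in that of Ipcef1, and not in those of Pcdh20 and Rprm. The windows had no motif in common among those searched apart from the pairs just named. They also differed in base composition. The Rprm window had 63.33% G and C and 19 CpG dinucleotides, against medians of 52.67% and 7 over all windows. The Tmc3 window had 51% G and C with 2 CpG, that of Pcdh20 43.67% with 4, and that of Ipcef1 44.67% with 6.

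Libraries held 12.4 M to 22.9 M counts, and 17503 genes in striatum and 17622 in cortex had enough counts to be tested. Msh6 transcript followed the labels, at a mean of 8.19 CPM (counts scaled to library size) in Q140 Msh6-/- and 8.09 CPM in Msh6-/- striata, against 17.4 CPM in wild-type striata. Reads of Msh6 were still counted in Msh6-/- mice. Htt transcript averaged 220.2 CPM in Q140 and 239.8 CPM in wild-type striata. Of 12 striatal projection neuron markers, none was at 0 in any striatal library. Their summed level in striatum was 7839 to 8702 CPM over the 24 Q140 carriers and 12085 to 15289.8 CPM over the 24 non-carriers, and in cortex it reached at most 529 CPM in carriers and 517 CPM in non-carriers. One striatal library, Q140 Msh6-/- mouse 21-3, had a summed level of 2757 CPM of choroid plexus markers, against a median of 28.8 CPM over Q140 carriers. Leaving that library out changed no direction and no call of the 5 genes in striatum. P-values of differences below set them against the spread between mice within groups, which edgeR estimated over all groups of a fit together.

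In wild-type striatum all 5 genes were low. On the FPKM scale, which divides by transcript length and so allows genes to be compared, Rprm led in Q140 striata at 6.86 ± 1.57, against 2.76 ± 0.769 in wild-type striata (SD, n = 8 each). Pcdh20 followed at 3.19 ± 0.365 FPKM in Q140 striata and 1.26 ± 0.201 FPKM in wild-type striata. Fam196b stood at 1.61 ± 0.22 FPKM in Q140 striata and 0.619 ± 0.152 FPKM in wild-type striata. Ipcef1 stood at 1.28 ± 0.104 FPKM in Q140 striata and 0.515 ± 0.0976 FPKM in wild-type striata. Tmc3 was lowest, at 0.443 ± 0.0552 FPKM in Q140 striata and 0.14 ± 0.0536 FPKM in wild-type striata. The order of the 5 genes was thus the same in both genotypes. The gap between Fam196b and Ipcef1 in wild-type striata was smaller than the SD of Fam196b, so their order there was not resolved by the spread between mice.

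Tmc3, the channel-like gene, had the highest log2 fold change of the 5 by edgeR in Q140 against wild-type striata, an order that does not hold on log2 FPKM with a pseudocount. Its lowest, median and highest levels were 3.29, 3.8 and 4.89 CPM in Q140 striata, against 0.82, 1.19 and 2.34 CPM in wild-type striata. The highest wild-type mouse stayed below the lowest Q140 mouse. In Q140 Msh6+/- striata Tmc3 had 3.3, 4.08 and 4.57 CPM, against 1.14, 1.57 and 1.83 CPM in Msh6+/- striata. In Q140 Msh6-/- striata it had 3.51, 4.01 and 4.69 CPM, against 0.726, 1.14 and 2.11 CPM in Msh6-/- striata. The groups were apart in each of the 3 pairs. The choice of genes with large rises favours such gaps, here and in the genes below. The share of all genes with such gaps was not counted. These levels rest on 51 to 88 reads in carriers and 13 to 36 reads in non-carriers. The log2 fold change was 1.60 ± 0.16 (SE) for Q140 against wild type, 1.36 ± 0.15 for Q140 Msh6+/- against Msh6+/- and 1.64 ± 0.16 for Q140 Msh6-/- against Msh6-/- mice. On log2(FPKM + 1), which understates the change of low genes, the Q140 against wild type value of Tmc3 was 0.34, the lowest of the 5, where Ipcef1 had 0.59, Fam196b 0.69, Pcdh20 0.89 and Rprm 1.06.

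Pcdh20, the protocadherin, had 15.2, 16.6 and 21.7 CPM as the lowest, median and highest level in Q140 striata, against 5.97, 6.79 and 9.33 CPM in wild-type striata. In Q140 Msh6+/- striata the values were 12.9, 17 and 22.7 CPM, against 6.28, 7.14 and 9.71 CPM in Msh6+/- striata. For Q140 Msh6-/- striata they were 13.8, 15.7 and 19.7 CPM, against 5.52, 7.56 and 9.55 CPM in Msh6-/- striata. Again no pair of groups overlapped. The log2 fold change was 1.27 ± 0.10 on the Msh6+/+ background, 1.21 ± 0.10 in Msh6+/- and 1.11 ± 0.10 in Msh6-/- mice, the lowest of the 5 genes in both Msh6 mutant backgrounds.

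Fam196b, the paralogue of the inhibitory synapse gene Fam196a, had lowest, median and highest levels of 6.81, 8.58 and 9.85 CPM in Q140 striata, against 2.2, 3.65 and 4.42 CPM in wild-type striata. In Q140 Msh6+/- striata it had 6.77, 9.53 and 11.5 CPM, against 2.1, 3.12 and 4.56 CPM in Msh6+/- striata. With Msh6 deleted, Q140 Msh6-/- striata had 6.13, 8.91 and 12 CPM, against 2.04, 2.74 and 4 CPM in Msh6-/- striata. Every carrier was above every matched non-carrier. The log2 fold change was 1.31 ± 0.14 in Msh6+/+, 1.55 ± 0.14 in Msh6+/- and 1.65 ± 0.14 in Msh6-/- mice.

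Ipcef1, the cytohesin partner, had lowest, median and highest levels of 10.1, 11.2 and 12.6 CPM in Q140 striata, against 3.91, 4.56 and 6.96 CPM in wild-type striata. In Q140 Msh6+/- striata it had 10.7, 11.7 and 13.6 CPM, against 3.99, 4.89 and 5.5 CPM in Msh6+/- striata. In Q140 Msh6-/- striata it had 10.2, 11.8 and 13.6 CPM, against 3.34, 4.38 and 5.7 CPM in Msh6-/- striata. Carriers and non-carriers were apart throughout. The log2 fold change of Ipcef1 was 1.25 ± 0.09, 1.30 ± 0.09 and 1.37 ± 0.09 in Msh6+/+, Msh6+/- and Msh6-/- mice, with the smallest SE of the 5 genes.

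Rprm, the Reprimo gene, had lowest, median and highest levels of 7.71, 8.9 and 13.1 CPM in Q140 striata, against 2.47, 4 and 6.05 CPM in wild-type striata. In Q140 Msh6+/- striata it had 8.66, 10.3 and 13.1 CPM, against 2.53, 3.68 and 5.33 CPM in Msh6+/- striata. In Q140 Msh6-/- striata it had 8.32, 9.14 and 13.2 CPM, against 2.43, 4.22 and 5.39 CPM in Msh6-/- striata. Here too the lowest carrier of each pair was above the highest non-carrier. Its log2 fold change was 1.23 ± 0.14 in Msh6+/+, 1.43 ± 0.15 in Msh6+/- and 1.23 ± 0.15 in Msh6-/- mice.

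**Figure D1:**
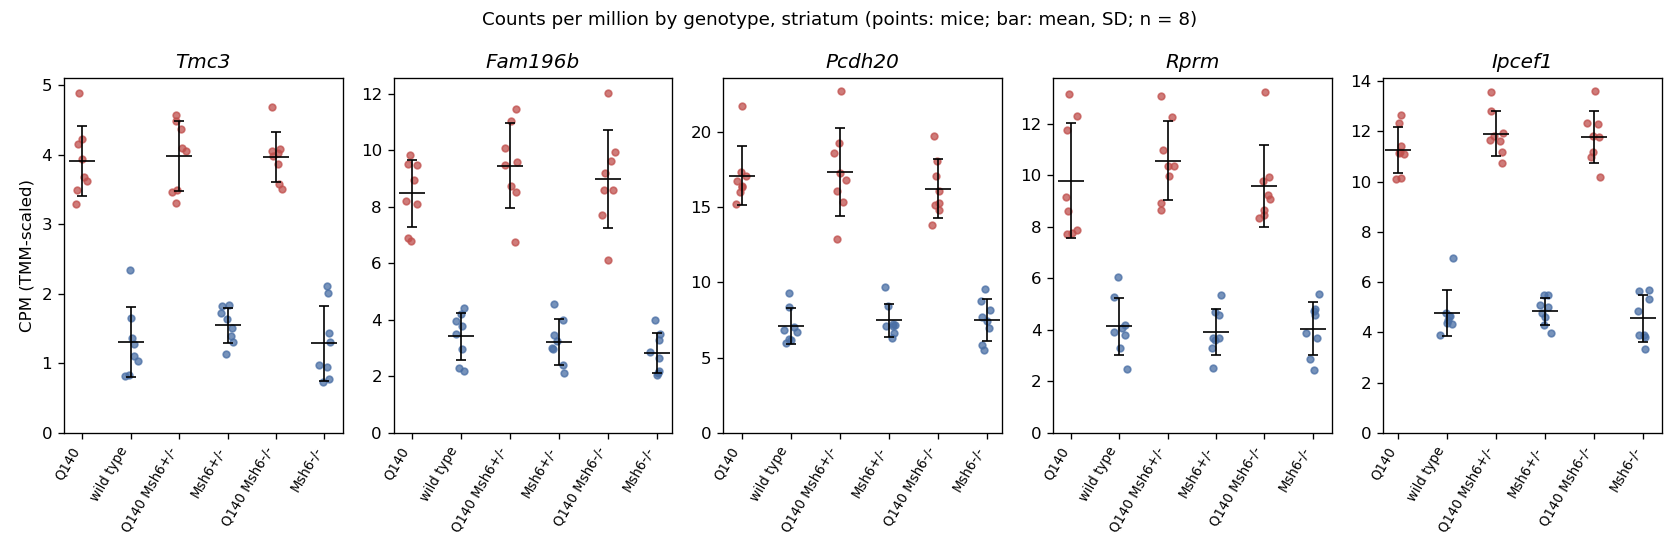
Level of each of the 5 genes in CPM (vertical axes, from 0) in striatum of the 6 genotypes (horizontal axes), with a point per mouse, the mean as a dash and the SD as an error bar (n = 8). In all 5 panels the red Q140 genotypes lie above the blue matched genotypes without overlap, as in Tmc3, where Q140 mice ran from 3.29 to 4.89 CPM and wild-type mice from 0.82 to 2.34 CPM.

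Over all 24 carriers and 24 non-carriers the pooled striatal log2 fold change was 1.53 ± 0.09 for Tmc3, 1.50 ± 0.08 for Fam196b, 1.31 ± 0.05 for Ipcef1, 1.30 ± 0.08 for Rprm and 1.20 ± 0.06 for Pcdh20. All 24 carriers were above all 24 non-carriers for each gene, a description of the same values that chose the genes. How many of the other genes separate in this way was not counted. In the same fit 52.7% of tested genes were called changed, and 29.7% were called for Q140 against wild type, 31.2% for Q140 Msh6+/- against Msh6+/- and 33% for Q140 Msh6-/- against Msh6-/- mice. Of the genes called for Q140 against wild type, 52.3% were higher in Q140 striata, against 78.1% when the deposited FPKM values were tested with limma, and the pooled shares were 55.3% and 76.5%. By size of the rise, among the 14065 genes whose log2 CPM averaged 1 or more, Tmc3 ranked 4, Fam196b 9, Pcdh20 10, Ipcef1 11 and Rprm 12 for Q140 against wild type. Tmc3 stood between Dsg2, a desmosomal cadherin at rank 3 with a log2 fold change of 1.75, and the haemoglobin gene Hbb-bs at rank 5. Below the other 4 stood Tnnt2 at rank 13, with 1.19. For Q140 Msh6-/- against Msh6-/- mice, Pcdh20 and Rprm ranked 23 and 17. Choroid plexus markers held ranks 1 to 3 there, and their summed level was highest in the library of mouse 21-3. Ranks without that library are not given.

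Projection neuron markers were lower in the same libraries. Of 12 such markers 10 fell and 1 rose by edgeR's quasi-likelihood test, where 52.7% of all tested genes were called. The list had a median log2 fold change of -0.66 against 0.02 over all genes. Penk, which encodes enkephalin, fell by 1.23 ± 0.02 on the log2 scale and Adcy5, the adenylyl cyclase of these neurons, by 0.73 ± 0.02. In bulk striatum, fewer cells of a type and less RNA per cell cannot be told apart. Cortical glutamatergic neuron markers summed to 198 to 241 CPM in striata of carriers and 192 to 255 CPM in striata of non-carriers. The ranges overlapped almost fully, but the sum does not gauge adjacent cortex carried in a dissection. Tle4, a marker of the list, was itself higher in striatum than in cortex of wild-type mice, by 1.92 ± 0.07 on the log2 scale. The other markers of the list were lower in striatum. In cortex the sum was 2333 to 2605 CPM in carriers and 2430.3 to 2707 CPM in non-carriers. Within this list Neurod6 was at 0 in some striatal libraries. Of the 9 markers tested in striatum 3 rose and 3 fell, and their median was 0.33. Among them Cux2, a transcription factor of upper-layer neurons, rose by 0.33 ± 0.05 on the log2 scale and Rasgrf2, an exchange factor for Ras, fell by 0.43 ± 0.10. The part of these shifts in the values of the 5 genes was not tested.

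In cortex, whose values the rule for choosing the genes did not use, Tmc3 rose, Ipcef1 fell by a small amount, and no change was called in Fam196b, Pcdh20 or Rprm. For all 24 carriers against all 24 non-carriers, 2 of the 5 genes were called at an adjusted p of 0.05 by edgeR's quasi-likelihood test, where 1.54% of the 17622 genes tested were called. Of all genes called there 30.6% were higher in carriers, against 53.8% when FPKM values were tested with limma. For Q140 against wild type none of the 5 was called, 2 had an unadjusted p under 0.05, and 0.017% of all genes were called, while DESeq2 called none of the 5 and gave Tmc3 no adjusted p. For Q140 Msh6+/- against Msh6+/- mice Tmc3 was called, beside 0.193% of all genes. For Q140 Msh6-/- against Msh6-/- mice Tmc3 was again called, beside 0.136% of all genes.

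Tmc3 was near the limit of detection in cortex, with 9 to 28 reads per library in carriers and 3 to 22 in non-carriers. Its lowest, median and highest levels were 0.654, 0.902 and 1.43 CPM in Q140 cortices, against 0.331, 0.516 and 1.12 CPM in wild-type cortices. These 2 groups overlapped, with 3 of 8 Q140 mice above every wild-type mouse. In Q140 Msh6+/- cortices Tmc3 had 0.721, 0.878 and 1.03 CPM, against 0.256, 0.358 and 0.516 CPM in Msh6+/- cortices, without overlap. In Q140 Msh6-/- cortices it had 0.427, 0.709 and 1.01 CPM, against 0.131, 0.304 and 0.78 CPM in Msh6-/- cortices, with 3 of 8 carriers above every non-carrier. By mean level the genotypes ran from Q140 (0.98 ± 0.286 CPM) through Q140 Msh6+/- (0.89 ± 0.0983), Q140 Msh6-/- (0.744 ± 0.194), wild type (0.584 ± 0.267) and Msh6+/- (0.368 ± 0.089) to Msh6-/- (0.348 ± 0.209), and neighbours in this order overlapped (SD, n = 8 each).

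The log2 fold change of Tmc3 in cortex was 1.03 ± 0.14 over all carriers (edgeR adjusted p = 1.35e-06, 23 of 24 carriers above the mean of non-carriers). It was 1.26 ± 0.24 for Q140 Msh6+/- against Msh6+/- mice (edgeR adjusted p = 0.00743, 8 of 8 above). For Q140 Msh6-/- against Msh6-/- mice it was 1.10 ± 0.25 (edgeR adjusted p = 0.0405, 8 of 8 above). That last call did not hold without the filter on low counts, without the sex term or with only the 2 genotypes fitted, with edgeR adjusted p of 0.0561, 0.0575 and 0.232 in that order. It was also lost when any 1 of 12 mice was left out (14-3, 16-3, 20-1, 24-2, 24-3, 25-2, 27-1, 28-1, 32-1, 32-4, 33-3 and 38-1), with an edgeR adjusted p of up to 0.164 over those fits. For Q140 against wild type the value was 0.74 ± 0.22 with an edgeR adjusted p of 0.378 and an unadjusted p of 0.00146, and 8 of 8 Q140 mice were above the wild-type mean. The pooled adjusted p was at most 4.27e-06 when any 1 of the 48 cortices was left out. Leaving out single mice was an alternative chosen after seeing the data.

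Ipcef1 was the most abundant of the 5 genes in cortex and its change there was of the opposite sign to the striatal one. Its lowest, median and highest levels were 115, 134 and 150.2 CPM over the 24 carriers, against 124, 144 and 171 CPM over the 24 non-carriers. The groups overlapped, but 23 of 24 carriers were below the mean of the non-carriers. The pooled log2 fold change of -0.13 ± 0.02 passed the threshold (edgeR adjusted p = 0.00124), in every alternative processing and with any single mouse left out. It was -0.14 ± 0.04 in Msh6+/+, -0.13 ± 0.04 in Msh6+/- and -0.11 ± 0.04 in Msh6-/- mice, none of which was called alone. By group, Ipcef1 averaged 131 ± 7.22 CPM in Q140 and 145 ± 13.8 CPM in wild-type cortices (SD, n = 8 each). It averaged 130.0 ± 4.87 CPM in Q140 Msh6+/- and 142 ± 8.31 CPM in Msh6+/- cortices. In Q140 Msh6-/- cortices the mean was 137 ± 7.08 CPM, and in Msh6-/- cortices 149 ± 6.97 CPM. In the Msh6 mutant backgrounds the means lay further apart than the SD of either group, and in Msh6+/+ mice by slightly less than the SD of wild-type cortices.

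**Figure D2:**
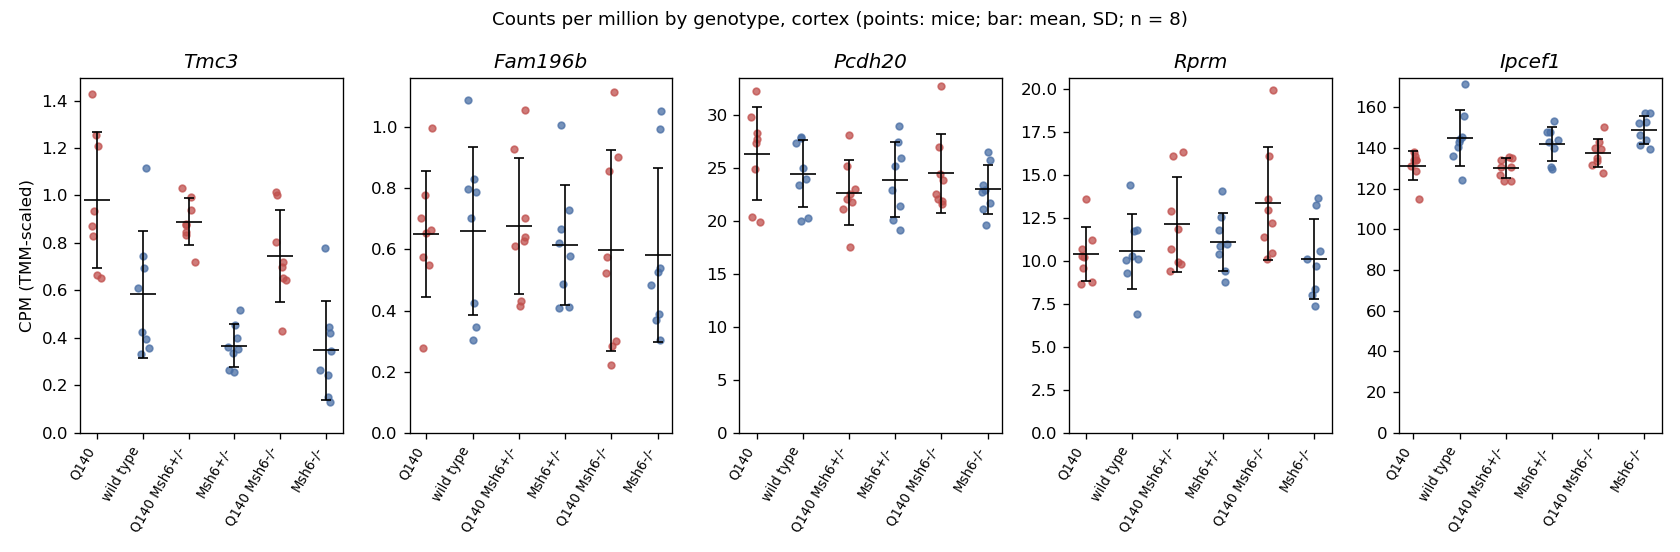
Level of each of the 5 genes in CPM (vertical axes, from 0) in cortex of the 6 genotypes (horizontal axes), with a point per mouse, the mean as a dash and the SD as an error bar (n = 8). On average Tmc3 is higher in the 3 red Q140 genotypes and Ipcef1 slightly lower. Matched groups of Tmc3 and Ipcef1 overlap, except those of Tmc3 in Q140 Msh6+/- and Msh6+/- mice. The other 3 genes overlap between all genotypes.

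No cortical change was called in Fam196b, Pcdh20 or Rprm. Fam196b had 0.22, 0.634 and 1.11 CPM as lowest, median and highest level in carriers, against 0.303, 0.559 and 1.09 CPM in non-carriers, on 5 to 24 reads per library. Its pooled log2 fold change was 0.04 ± 0.16, with an interval of -0.29 to 0.37 (estimate minus and plus 2 SE) and an edgeR adjusted p of 0.949. The interval lies below the pooled striatal difference of 1.50, but the difference between the tissues in the Q140 effect was not tested. Pcdh20 had 17.6, 23.5 and 32.7 CPM in carriers, against 19.2, 23.4 and 28.9 CPM in non-carriers. The pooled difference of Pcdh20 was 0.04 ± 0.05 (-0.07 to 0.15, edgeR adjusted p = 0.806), and carriers were split evenly around the mean of non-carriers, 12 above and 12 below. Rprm had 8.68, 11 and 20.0 CPM in carriers, against 6.89, 10.4 and 14.4 CPM in non-carriers. Its pooled difference of 0.17 ± 0.08 (0.01 to 0.32) had an unadjusted p of 0.0376 and an edgeR adjusted p of 0.316, with 14 of 24 carriers above the mean. By background it was -0.03 ± 0.14 in Msh6+/+ and 0.12 ± 0.13 in Msh6+/- mice, and largest in Q140 Msh6-/- cortices, at 10.1, 12.6 and 20.0 CPM, against 7.36, 9.91 and 13.7 CPM in Msh6-/- cortices. There 7 of 8 mice were above the mean of Msh6-/- mice, and the log2 fold change of 0.41 ± 0.13 was not called (edgeR adjusted p = 0.535).

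**Figure D3:**
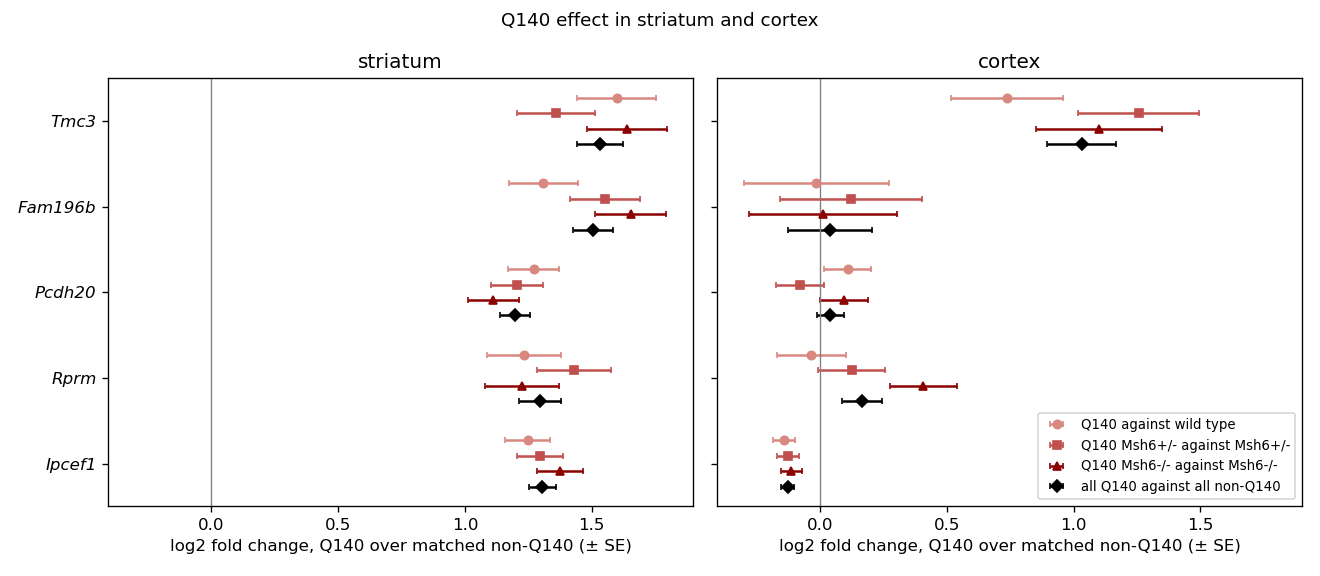
Log2 fold change of Q140 over matched non-Q140 mice (horizontal axes, ± SE) for the 5 genes (vertical axis) in striatum (left) and cortex (right), with a symbol for each of the 3 Msh6 backgrounds and for all mice pooled. All striatal symbols lie above 1, from 1.11 to 1.65, and in cortex those of Tmc3 lie between 0.74 and 1.26 while those of the other genes stay below 0.5.

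The tissues were compared in mice of the same genotype, in a fit of all 96 libraries that tested 18440 genes. This fit had no term for the mouse, so both tissues of a mouse entered as separate libraries. The adjusted p-values of the tissue comparison come from it. The striatal libraries of both groups also entered the choice of the genes, so their striatal levels are not independent of that choice. In wild-type mice all 5 genes differed between striatum and cortex, where 72.4% of all tested genes were called. The log2 difference, striatum minus cortex, was 2.36 ± 0.21 for Fam196b (edgeR adjusted p = 1.81e-18) and 1.09 ± 0.21 for Tmc3 (edgeR adjusted p = 2.60e-06), both higher in striatum. It was -4.97 ± 0.07 for Ipcef1 (edgeR adjusted p = 1.32e-81), -1.82 ± 0.11 for Pcdh20 (edgeR adjusted p = 5.14e-29) and -1.38 ± 0.15 for Rprm (edgeR adjusted p = 1.15e-13), all lower in striatum. In levels, Ipcef1 averaged 0.515 ± 0.0976 FPKM in wild-type striata and 16 ± 1.51 FPKM in wild-type cortices (SD, n = 8 each). Fam196b averaged 0.619 ± 0.152 FPKM in wild-type striata and 0.122 ± 0.0508 FPKM in wild-type cortices. The 5 genes thus comprise 2 of higher striatal and 3 of higher cortical level.

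In Q140 mice 4 of the 5 genes differed between the tissues, beside 70.8% of all tested genes. The genes were chosen for large rises in Q140 striata, which favours high values there. The Q140 differences and tests given here are therefore not independent of that choice. Fam196b and Tmc3 were higher in Q140 striata than in Q140 cortices by log2 differences of 3.69 ± 0.19 and 1.96 ± 0.17. Pcdh20 and Ipcef1 were lower in Q140 striata, with -0.65 ± 0.10 and -3.57 ± 0.06, all 4 with an edgeR adjusted p of 3.36e-09 or less. For Rprm the difference of -0.10 ± 0.14 (-0.38 to 0.17) was not called (edgeR adjusted p = 0.508). Rprm stood at 6.86 ± 1.57 FPKM in Q140 striata and 7.14 ± 1.07 FPKM in Q140 cortices. Ipcef1, in contrast, stood at 1.28 ± 0.104 FPKM in Q140 striata and 14.6 ± 0.841 FPKM in Q140 cortices. With the mouse as a replicate block the wild-type differences were 2.34 for Fam196b, 1.08 for Tmc3, -4.96 for Ipcef1, -1.81 for Pcdh20 and -1.38 for Rprm, and the calls were the same.

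**Figure D4:**
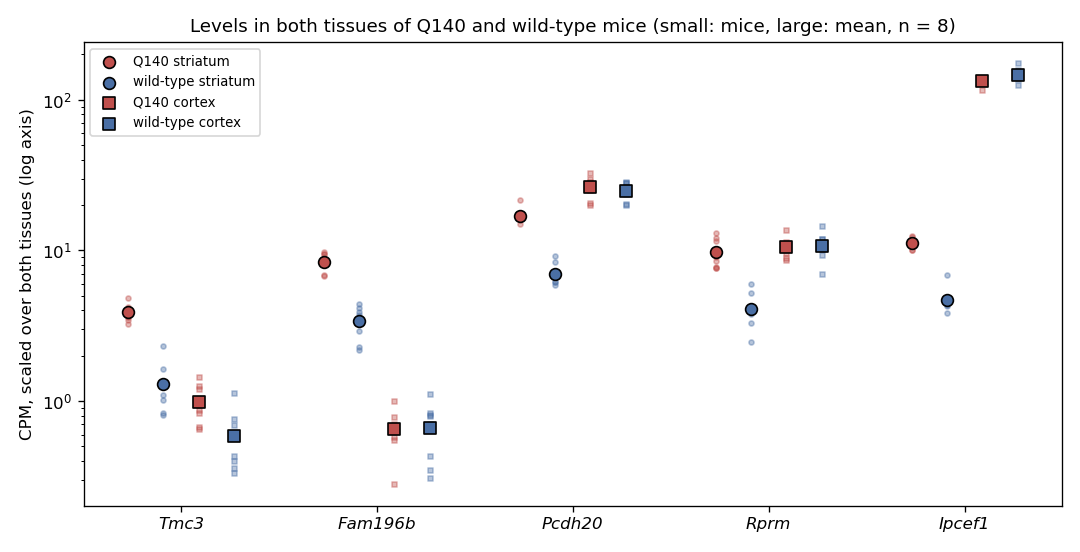
Level of the 5 genes in CPM scaled over both tissues (vertical log axis) in striatum (circles) and cortex (squares) of Q140 (red) and wild-type (blue) mice, with small symbols for mice and large ones for the mean of 8. In Q140 striata Rprm lies beside its cortical level and Ipcef1 stays far below, at a mean of 11.2 CPM against 132 CPM in Q140 cortices.

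No effect of Msh6 dose on the 5 genes passed the test, with or without Q140. These comparisons are other contrasts than those that chose the genes, but they share mice with them. In striatum none of the 5 was called by edgeR's quasi-likelihood test for Q140 Msh6-/- against Q140 mice (0.177% of all genes called), Q140 Msh6+/- against Q140 mice (0.00571%), Msh6-/- against wild type (0.0971%) or Msh6+/- against wild type (0.0114%). None of the 5 had an unadjusted p under 0.05 in those 4 comparisons, and DESeq2 called none. In cortex none was called for Q140 Msh6-/- against Q140 mice (0.153% of all genes), Q140 Msh6+/- against Q140 mice (0.0113%), Msh6-/- against wild type (0.131%) or Msh6+/- against wild type (0.00567%). There 1 of the 5 had an unadjusted p under 0.05 in each comparison, and DESeq2 called none. For Tmc3 in striatum, Q140 Msh6-/- against Q140 mice gave 0.02 ± 0.14 (-0.25 to 0.30) on the log2 scale, where the bracket holds the interval of 2 SE on each side.

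The same comparison of Q140 Msh6-/- with Q140 striata gave 0.08 ± 0.12 (-0.16 to 0.33) for Fam196b, -0.07 ± 0.09 (-0.26 to 0.11) for Pcdh20, -0.04 ± 0.13 (-0.31 to 0.22) for Rprm and 0.06 ± 0.08 (-0.10 to 0.23) for Ipcef1. Each interval spans 0 and stays below 0.5 log2 units in size. Among mice without Q140, Fam196b had 2.83 ± 0.717 CPM in Msh6-/- striata, against 3.42 ± 0.841 CPM in wild-type striata (SD, n = 8 each). Its difference of -0.26 ± 0.16 (-0.57 to 0.05) was not called (edgeR adjusted p = 0.839). In cortex the members with an unadjusted p under 0.05 were Tmc3, with a log2 difference of -0.76 ± 0.26 in Msh6-/- against wild-type mice (edgeR adjusted p = 0.932) and, in Msh6+/- against wild-type mice, -0.66 ± 0.26 (edgeR adjusted p = 0.999). The others were Rprm, at 0.37 ± 0.13 in Q140 Msh6-/- against Q140 mice (edgeR adjusted p = 0.562), and Pcdh20, at -0.22 ± 0.09 in Q140 Msh6+/- against Q140 mice (edgeR adjusted p = 0.578).

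Whether the Q140 difference depended on Msh6 was tested as an interaction, and none of the 5 genes was called in either tissue. At an unadjusted p under 0.05 there were 0 of the 5 in striatum and 1, Rprm, in cortex. edgeR called 0% of all genes in each of the 4 interaction tests, with 876 genes at an unadjusted p under 0.05 for Msh6-/- and 836 for Msh6+/- in striatum, and 692 and 911 in cortex. DESeq2 called 1 gene of all for Msh6-/- in striatum and 1 for Msh6+/- in cortex, neither among the 5, and none in the other 2 tests. In striatum the contrasts being subtracted are those that chose the genes. The striatal Q140 difference in Msh6-/- minus that in Msh6+/+ mice was 0.34 ± 0.20 (-0.05 to 0.74) for Fam196b, the largest of the 5, with an unadjusted p of 0.0879. It was -0.16 ± 0.14 (-0.45 to 0.13) for Pcdh20, 0.13 ± 0.13 (-0.13 to 0.38) for Ipcef1, 0.04 ± 0.23 (-0.41 to 0.50) for Tmc3 and -0.01 ± 0.21 (-0.42 to 0.41) for Rprm. In cortex the Rprm interaction of 0.44 ± 0.19 (0.06 to 0.82) had an unadjusted p of 0.0247 and an edgeR adjusted p of 1. The cortical Tmc3 interactions were 0.36 ± 0.33 (-0.30 to 1.03) for Msh6-/- and 0.52 ± 0.33 (-0.14 to 1.17) for Msh6+/- mice, intervals too wide to separate the called from the uncalled backgrounds.

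None of the 5 genes was called for male against female mice by edgeR, where 5.22% of all genes were called in striatum and 6.08% in cortex, and DESeq2 called none of the 5 either, giving Tmc3 in cortex no adjusted p (unadjusted p = 0.155). In striatum 1 of the 5, Fam196b, had an unadjusted p under 0.05, with a male minus female log2 difference of -0.18 ± 0.08 (-0.35 to -0.01) and an edgeR adjusted p of 0.219, and in cortex none did. The other striatal differences were -0.13 ± 0.09 (-0.31 to 0.06) for Tmc3, 0.06 ± 0.06 (-0.06 to 0.18) for Pcdh20, -0.02 ± 0.08 (-0.18 to 0.14) for Rprm and -0.05 ± 0.05 (-0.15 to 0.05) for Ipcef1. The Q140 effect in males minus that in females was called in none of the 5, with none at an unadjusted p under 0.05, and in 0% of all genes in either tissue by edgeR and DESeq2 (593 genes at an unadjusted p under 0.05 in striatum and 716 in cortex). For Ipcef1 in striatum it was 0.17 ± 0.10 (-0.03 to 0.37) and for Tmc3 in cortex -0.47 ± 0.27 (-1.01 to 0.08).

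The 5 genes did not vary together between mice of the same genotype to a degree that passed the test. After the genotype and sex terms were removed from log2 CPM, 10 pairs of genes were correlated over the 48 striata, and each gene was correlated between striatum and cortex of the 48 mice. None of these 15 correlations passed after Benjamini-Hochberg adjustment of two-sided permutation tests. The largest was between Tmc3 and Ipcef1, with Pearson's r = 0.40 (permutation p = 0.00481, adjusted p = 0.0722) and Spearman's rho = 0.27 (permutation p = 0.0654, adjusted p = 0.339). Without the 2 mice farthest from the median of Tmc3 its r was 0.18, and among the 24 carriers it was -0.03, so that value depends on which mice are included. Tmc3 and Rprm had r = -0.32 (permutation p = 0.0253, adjusted p = 0.189) and rho = -0.27 (permutation p = 0.0678, adjusted p = 0.339), and -0.31 without the 2 mice. Between striatum and cortex of the same mouse r ran from -0.09 for Pcdh20 to 0.18 for Ipcef1.

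Across all 48 striata, with the genotypes left in, the profiles most like those of the 5 genes were found by Pearson's r of log2 CPM over 12573 named genes, as a description that includes the contrast by which the genes were chosen. For Tmc3 they were Ipcef1 (r = 0.93), Wiz, a zinc finger protein of the histone methyltransferase complex of G9a (r = 0.927), and Cdkl2, a cyclin-dependent kinase-like kinase (r = 0.917). For Fam196b they were Lrrn3, a leucine-rich repeat membrane protein (r = 0.932), Stmn2, a neuronal stathmin that regulates microtubules (r = 0.927), and Olfm3, an olfactomedin (r = 0.922). For Pcdh20 they were Stmn2 (r = 0.931), Syp, the synaptic vesicle protein synaptophysin (r = 0.93), and Cd200, a membrane glycoprotein that restrains myeloid cells (r = 0.929). Rprm was most like Nagk, an N-acetylglucosamine kinase (r = 0.943), Prkar1b, a regulatory subunit of protein kinase A (r = 0.94), and Gprasp2, a receptor-associated sorting protein (r = 0.94). Ipcef1 was most like Cd200 (r = 0.951), Gng3, a G protein gamma subunit (r = 0.938), and Ankrd45 (r = 0.938). Apart from Ipcef1, these genes had pooled striatal log2 fold changes between 0.28 for Prkar1b and 0.83 for Olfm3. Their cortical log2 fold changes ran from -0.07 for Olfm3 to 0.09 for Nagk.

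Striatal differences of the genes that overlap or flank the 5 are given here for the pooled comparison. All were smaller than those of the 5 genes, which were themselves chosen for large striatal rises. Tmc3 overlaps the antisense gene Gm16638 over 3961 exonic bases, and without the strand setting of the counting the reads of the 2 cannot be told apart, so the level of Tmc3 is uncertain to that extent. Gm16638 was at 20.1 ± 1.64 CPM in striata of carriers and 16.2 ± 2.32 CPM in those of non-carriers (SD, n = 24 each). It rose by 0.32 ± 0.04 on the log2 scale (edgeR adjusted p = 3.53e-08), and in cortex, where Tmc3 also rose, Gm16638 had -0.05 ± 0.05 (edgeR adjusted p = 0.777). Stard5, a lipid-binding START-domain protein gene that begins 6345 bases beyond the end of Tmc3, was at 13.8 ± 2.66 CPM in striata of carriers and 8.1 ± 2.32 CPM in those of non-carriers. It rose in striatum by 0.78 ± 0.10 (edgeR adjusted p = 2.25e-09) and had -0.03 ± 0.05 in cortex (edgeR adjusted p = 0.839). On the other side, Mex3b, an RNA-binding protein gene at 713412 bases, had -0.06 ± 0.05 in striatum (edgeR adjusted p = 0.307).

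Fam196b lies inside Dock2, an exchange factor gene of immune cells on the opposite strand, with no shared exonic base. Dock2 fell in striatum by 0.17 ± 0.05 on the log2 scale (edgeR adjusted p = 0.00129), the opposite direction to Fam196b. The nearest tested genes were Lcp2, an adaptor of immune cells, at -0.14 ± 0.07 (edgeR adjusted p = 0.0892), and Spdl1, a kinetochore protein gene 386550 bases away, which rose by 0.59 ± 0.13 (edgeR adjusted p = 0.000178). Ipcef1 overlaps Oprm1, the mu opioid receptor gene on the opposite strand, over 96 exonic bases. Oprm1 rose in striatum by 0.28 ± 0.09 (edgeR adjusted p = 0.0106), and the reads of those bases are uncertain in the same way. The pseudogene Gm15536 inside Ipcef1 had -0.09 ± 0.11 (edgeR adjusted p = 0.506). Its flanking genes Rgs17, a regulator of G protein signalling, and Cnksr3, a scaffold protein, had 0.03 ± 0.04 and 0.11 ± 0.07, neither called (edgeR adjusted p = 0.635 and 0.219). Next to Rprm, the pseudogene Gm13502 had -0.12 ± 0.08 (edgeR adjusted p = 0.215), and Galnt13, a glycosyltransferase gene, fell by 0.09 ± 0.02 (edgeR adjusted p = 0.000719). Next to Pcdh20, the pseudogene Rps3a2 had 0.02 ± 0.03 (edgeR adjusted p = 0.702) and the pseudogene Gm10110, 1424832 bases away, rose by 0.25 ± 0.04 (edgeR adjusted p = 9.59e-07).

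Genes of the same family or pathway were followed in the pooled striatal comparison, where 52.7% of all tested genes were called and the median log2 fold change over all genes was 0.02. The 5 genes themselves are not counted in these lists. Of 10 non-clustered protocadherins tested beside Pcdh20, 6 rose and 1 fell, with a median of 0.13. Pcdh19, a delta-2 protocadherin, rose by 0.84 ± 0.06 (edgeR adjusted p = 1.21e-17), Pcdh10 by 0.32 ± 0.03 and Pcdh11x by 0.25 ± 0.04, while Pcdh7 fell by 0.21 ± 0.03. Of 7 tested genes of the TMC family and its hair-cell partners 3 rose and 2 fell, with a median of -0.04. Lhfpl5, a partner of the hair-cell channel, rose by 0.37 ± 0.07 and Cib2, its calcium-binding partner, by 0.16 ± 0.05. Tmc4 fell by 0.45 ± 0.06 (edgeR adjusted p = 1.68e-08) and Tmc8 by 0.64 ± 0.12, the opposite direction to Tmc3.

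Of 12 tested inhibitory postsynapse genes, read beside Fam196b, 3 rose and 5 fell, with a median of -0.02. The adhesion protein gene Slitrk3 rose by 0.23 ± 0.02 (edgeR adjusted p = 4.71e-15). Igsf9b, another adhesion protein gene of inhibitory synapses, fell by 0.55 ± 0.05 (edgeR adjusted p = 3.86e-13). The paralogue Fam196a had -0.11 ± 0.06 (edgeR adjusted p = 0.153). Of 15 tested genes of a list of cytohesins and other genes linked to ARF6, read beside Ipcef1, 2 rose and 8 fell, with a median of -0.07. Git1, a GTPase-activating protein for ARF6, fell by 0.60 ± 0.02 (edgeR adjusted p = 4.27e-27). The exchange factor genes Psd and Iqsec2 fell by 0.40 ± 0.02 and 0.24 ± 0.02, and Grasp, a cytohesin-binding scaffold, fell by 0.29 ± 0.04. Of 13 tested genes linked to Reprimo and p53, read beside Rprm, 3 rose and 3 fell, with a median of 0.05. Gadd45a and Cdkn1a, both growth-arrest genes that p53 induces, fell by 0.54 ± 0.09 and 0.42 ± 0.09 (edgeR adjusted p = 0.000162 for Cdkn1a). Trp53, which encodes p53, rose by 0.11 ± 0.03 and Mdm2, its ubiquitin ligase, by 0.07 ± 0.02.

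In cortex few genes of these lists were called, beside the 1.54% called of all genes. None of 10 protocadherins and none of 8 genes of the TMC list was called by edgeR. Of 12 inhibitory postsynapse genes 2 fell, among them Gabra2, a GABA-A receptor subunit gene, by 0.33 ± 0.09 (edgeR adjusted p = 0.0384). Cyth1, a cytohesin, rose by 0.08 ± 0.02, the only call among 15 genes of its list (edgeR adjusted p = 0.0272), in the tissue where Ipcef1 was lower in carriers. Ccng1, a p53-induced cyclin, fell by 0.10 ± 0.03, the only call among 11 genes of the list of Rprm (edgeR adjusted p = 0.0403).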

How the data were processed

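The authors deposited a table of read counts per gene and a table of FPKM values for 48795 genes in 96 libraries. Per the labels' protocols, RNA was extracted with a Qiagen kit and libraries were made with a stranded TruSeq protocol. Per the submitters' processing notes, STAR 2.7.5c, SAMtools 1.10 and HTSeq 0.12.3 were used with GRCm38. Which strand setting and annotation release were used is not given in the sources used here. Coordinates came from GENCODE M21, in which 48349 identifiers matched.

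Counts were fitted per tissue over 48 libraries with edgeR 4.0.16 (R 4.3.3), by quasi-likelihood with TMM scaling, 1 term per genotype and sex. Genes were kept by filterByExpr (minimum count 10, minimum total 15). Adjusted p is Benjamini-Hochberg over all genes tested, with a threshold of 0.05. CPM uses TMM library sizes. Alternatives were DESeq2 1.42.0, RLE scaling, no filter, no sex term, a covariate for the prefix of the animal number, only the 2 genotypes, a threshold of 0.1, and limma 3.58.1 on log2 FPKM plus 0.1 or 1 (mean FPKM at least 0.1). The pipeline was tested on simulated data. Correlations used 100000 permutations (SciPy 1.17.1).

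Tissues were paired by the mouse number of the labels, and the median r of residuals over 16806 genes was 0.145 within a mouse and -0.00382 between mice. The 5 genes and the gene lists were chosen with earlier results of these data known. Named besides the 5 genes are up to 4 called genes per list with the smallest adjusted p, overlapping and flanking genes, the 3 genes of highest r, and rank neighbours. Gene lists were family or pathway lists for each gene and markers of 9 cell types, with projection neuron, cortical, striosome, interneuron, oligodendrocyte, astrocyte, microglia, endothelial and choroid plexus markers. Fam196a and Tle4 were named after their values were seen. Some genes that meet this rule are not reported here.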

Additional observations from a re-analysis of the deposited data

Results flagged for a closer look

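Among 60 groups of 8 mice (5 genes, 6 genotypes and 2 tissues), 4 held a mouse set apart from the others by Dixon's test at 95%, where chance gives about 1 in 20. Pcdh20 in Q140 striata was 21.7 CPM in mouse 24-1, against 17.3 CPM in the next highest mouse. Rprm in Q140 Msh6-/- striata was 13.2 CPM in mouse 27-1, against 9.92 CPM in the next highest. Ipcef1 in wild-type striata was 6.96 CPM in mouse 16-2, against 4.75 CPM in the next highest, and still below every Q140 mouse. Ipcef1 in Q140 cortices was lowest in mouse 14-2 at 115 CPM, against 128 CPM in the next lowest. The 4 values come from 4 mice, and no mouse was set apart for more than 1 of the genes.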

How the results depend on the processing

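No called result and no striatal Q140 difference of the 5 genes changed sign under any alternative. Some values near 0 that were not called did, such as Rprm for Msh6-/- against wild type in striatum (-0.04 to 0.07 over the alternatives) and Fam196b for Q140 against wild type in cortex (-0.02 to 0.02, and -0.14 to 0.10 with a mouse left out). With RLE scaling 48% of the genes called for Q140 against wild type in striatum were higher, against 52.3% with TMM. With limma on log2(FPKM + 1), which compresses low values, the median striatal log2 fold change of the 5 genes was 0.69 for Q140 against wild type, 0.82 in Msh6+/-, 0.79 in Msh6-/- and 0.78 pooled, and Tmc3 was the lowest of the 5 in each. In cortex Tmc3, at a mean of 0.0723 FPKM, was below the FPKM filter and so not tested by limma. DESeq2 tested it but gave no adjusted p in the Msh6+/+, Msh6+/- and pooled Q140 comparisons and the sex comparison, so it could not be called there. That leaves 0 of the 5 called for Q140 Msh6+/- against Msh6+/- mice by DESeq2 and limma, and 1 for the pooled comparison. DESeq2 gave Tmc3 a pooled cortical log2 fold change of 1.04 with an unadjusted p of 2.23e-12. For Q140 Msh6-/- against Msh6-/- cortices the count was 0 with no filter, no sex term, only the 2 genotypes or limma, and 0 to 1 with a mouse left out. The adjusted p of Tmc3 there was 0.0561, 0.0575 and 0.232 in the first 3 of these, and it ran from 0.00266 to 0.164 with a mouse left out; the cause was not tested. The replicate block by mouse changed no call of the tissue comparison, with 5 of 5 genes in wild-type and 4 of 5 in Q140 mice. Counts over all genes moved by over 1.5 times in cortex, to 22 with DESeq2 against 3 for Q140 against wild type, to 145 against 34 in Msh6+/- and to 412 against 271 pooled. With only the 2 genotypes they were 1 for Q140 against wild type and 9 in Msh6+/- mice, and 14 against 24 in Msh6-/- cortices. For Msh6-/- against wild-type striata DESeq2 called 27 against 17 genes, and for Q140 Msh6-/- against Q140 striata the count was 50 with no filter and 12 with limma on log2(FPKM + 0.1), against 31. For Msh6+/- against wild type it was 0 against 2 in striatum with the animal number prefix and 2 against 1 in cortex with no filter, and for Q140 Msh6+/- against Q140 cortices 1 against 2 with only the 2 genotypes. With the looser threshold of 0.1 all member calls in the comparisons were as at 0.05. The looser threshold was not applied to the correlations, where Pearson's r of Tmc3 with Ipcef1 had a permutation adjusted p of 0.0722. Depth limits Tmc3 and Fam196b in cortex, which had 3 to 28 and 5 to 24 reads per library.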

Other observations

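Markers of other cell types moved in the same striatal libraries as the 5 genes, in the pooled comparison in which 52.7% of all genes were called. All 6 microglia markers and all 6 endothelial markers fell by edgeR's test, with median log2 fold changes of -0.19 and -0.23. Of 6 astrocyte markers 5 fell (median -0.18) and of 6 oligodendrocyte markers 4 fell (median -0.16). Of 7 tested interneuron markers 5 fell (median -0.12). Of 6 striosome markers 2 rose and 3 fell (median -0.09). Of 4 tested choroid plexus markers 2 rose (median 0.92), with the library of mouse 21-3 included. The part of these shifts in the values of the 5 genes was not tested. In cortex the pooled comparison called 1 microglia marker higher, 1 oligodendrocyte marker lower, 1 projection neuron marker higher and 1 lower, 1 cortical glutamatergic marker lower, and none of the interneuron, astrocyte, endothelial, striosome and choroid plexus markers.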
